A study of Mus musculus with 8 samples.

Results

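Hnf4a, Hnf4g, Cdx1, Cdx2, Gata4, Gata6, Klf4, Klf5 and Prdm1 encode DNA-binding transcription factors that set intestinal identity and the program of absorptive enterocytes. These 9 genes were chosen by name, as factors known for that role, with earlier results of these data known. All 9 were found among the 54532 genes of the count table. They also passed the filter on low counts that left 9855 genes for testing. Their transcripts were compared between intestinal epithelial cells of 4 WT and 4 Rank-knockout mice at lactation day 5. Rank, gene symbol Tnfrsf11a, is the receptor for the cytokine RANKL and signals through NF-κB. Per the study's methods, the knockout females carried floxed Rank alleles deleted by Cre under the Villin1 promoter, which is active in epithelial cells of the gut, the WT females were littermates, the lines were on a C57BL/6J background, and both kinds of females had been mated with wild-type males. The study used age-matched littermates of a range of ages and states no separate age for these lactating mice. The titles number the mice of each genotype, and each gave 1 library.

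The intestinal epithelium renews itself continuously: stem cells and their dividing progeny lie in the crypts, and their daughters mature into enterocytes as they move onto the villi. The caudal homeobox factors CDX2 and CDX1 give the tissue its intestinal identity, the nuclear receptors HNF4α and HNF4γ drive the genes of mature enterocytes, and GATA4 and GATA6 shape regional and crypt-villus programs. Among the Krüppel-like factors, KLF5 marks dividing crypt cells and KLF4 marks cells that have left the cycle, including goblet cells; PRDM1, also called BLIMP1, is known as the repressor that holds back the adult enterocyte program before weaning.

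Total counts ran from 1530781 to 4335653 per library, and 3 of the 4 WT libraries were the shallowest of the set. The libraries were made from the 3′ ends of transcripts, so that long and short transcripts yield similar numbers of tags and levels of different genes can be set side by side in CPM, the counts scaled to a common library size by the TMM method. A tag at the 3′ end of Tnfrsf11a can come from outside the deleted exons, so its counts do not check the labels. Tnfrsf11a had 113, 196, 61 and 111 counts in WT and 128, 112, 79 and 179 in Rank-knockout, or 60.7 ± 17.7 and 38.0 ± 8.64 CPM (SD, n = 4 per genotype), which is −0.67 on the log2 scale (SE 0.22, edgeR adjusted p = 0.0321; 0.114 with library totals, and 0.0746 to 0.104 when WT library 1 or 4, or library 1 or 3 of the knockouts, was left out). Summed markers of epithelial cells stood at 9162 to 10046 CPM in the WT libraries and overlapped with the 7655 to 9738 CPM of the Rank-knockout libraries, but Cdh1 made up 4599 CPM of it on average in WT and 4520 in Rank-knockout; of these 7 markers Epcam, Vil1 and Cdh17 fell and Krt18 and Krt19 rose. These counts were not stable. Only 1 fell with library totals, with library sizes that leave out the 50 most abundant genes and with no filter. The same held when library 3 or 4 of WT or 2 or 3 of the knockouts was left out. Only 1 rose with RLE scaling factors, in DESeq2 and in limma-voom. This was also so when library 1, 3 or 4 of WT or 1, 2 or 3 of the knockouts was left out. Each of the marker lists for stromal cells, endothelium and macrophages stayed under 20 CPM in sum in every library, with Cdh5 and Adgre1 at 0 counts in all 8. The summed markers of villus enterocytes and of cycling cells did not overlap between the genotypes: all 9 villus markers fell, from a sum of 9727 to 15064 CPM in WT to 5516 to 7674 CPM in Rank-knockout, and all 11 cycling markers rose, from 521 to 824 CPM to 1327 to 2111 CPM. In bulk samples such as these, fewer cells of a type and less RNA per cell cannot be told apart. Whether these marker shifts have a part in any result below was not tested.

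Klf4, Hnf4g and Prdm1 fell in Rank-knockout epithelium and Cdx1 rose, while the other 5 factors did not pass the test. These 4 of 9 calls (44.4%) stand beside 30.4% of all tested genes past the same threshold of an edgeR adjusted p of 0.05. The 3 falls (33.3%) stand beside 14.6% of tested genes called lower and the single rise (11.1%) beside 15.8% called higher. For Klf4, Hnf4g and Cdx1 no Rank-knockout library reached into the WT range, which is 3 of 9 (33.3%) beside 28.8% of tested genes. The 4 calls held in each of the 17 alternative fits, which changed the scaling, the filter, the test or the libraries used.

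**Figure D1:**
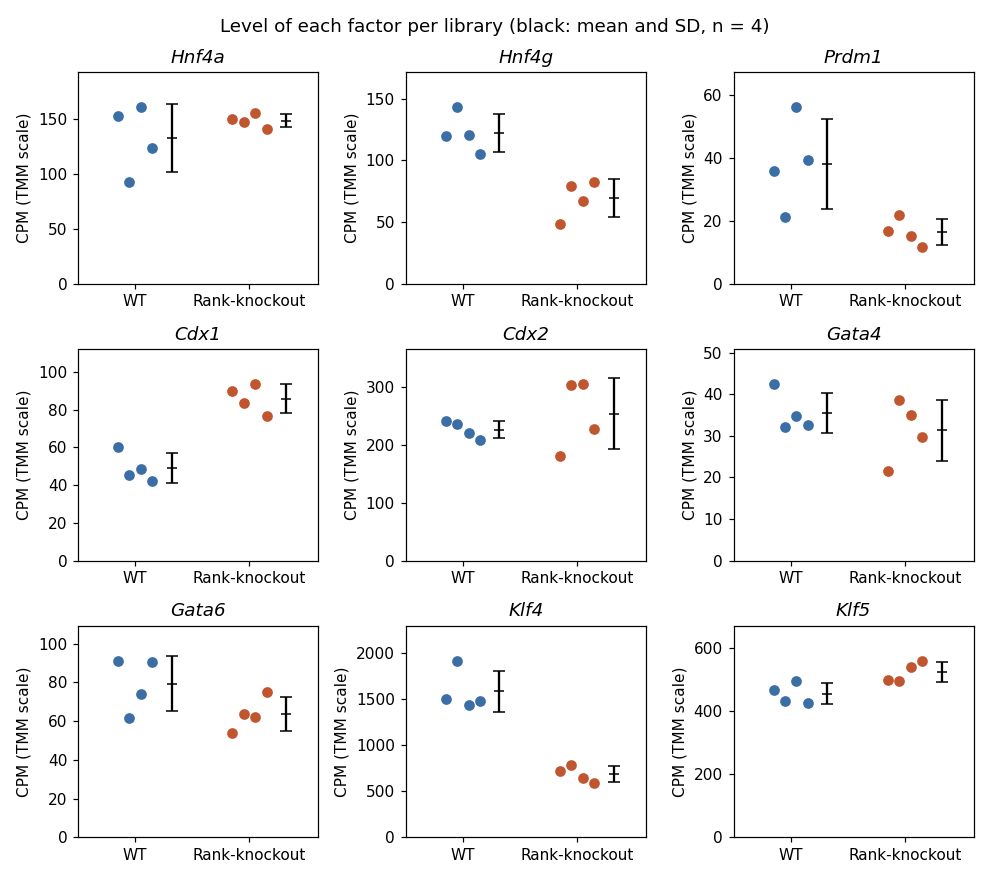
Level of each of the 9 factors in every library, in CPM on the TMM scale (vertical axis from 0), for the 4 WT (blue) and 4 Rank-knockout (orange) libraries, with the mean and SD in black. Klf4, Hnf4g and Cdx1 show no overlap between genotypes, whereas Prdm1 overlaps through WT replicate 2 at 21.0 CPM.

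Klf4 had the highest level of the 9 in both genotypes and fell. Its gene (ENSMUSG00000003032) lies on GRCm38 chromosome 4, 55527143 to 55532466, minus strand. WT replicates 1 to 4 had 1502, 1915, 1440 and 1480 CPM and Rank-knockout replicates 1 to 4 had 722, 786, 643 and 593 CPM. Every Rank-knockout library lay below every WT library. The means were 1584 ± 222 and 686 ± 85.4 CPM (SD, n = 4 each), a log2 fold change of −1.21 (SE 0.15, 95% interval −1.53 to −0.88, edgeR adjusted p = 0.000149). Klf4 stood at the 99.3rd percentile of tested genes by mean level in WT and at the 98.1st in Rank-knockout, so that it remained among the more abundant transcripts. WT replicate 2 lay above the other 3 WT libraries, and without it the fall was −1.11. Because KLF4 is known from goblet cells as well as from villus enterocytes, the goblet markers were set beside it: their sum ran from 13084 to 17410 CPM in WT and only from 7363 to 10073 CPM in the knockouts, with 4 of 7 lower (Zg16, Fcgbp, Muc2, Clca1; 2 of 7 with library totals) and 2 higher (Agr2, Spink4). The part of goblet cells in the fall of Klf4 was not tested.

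Klf5, the crypt-associated relative of Klf4, differed little. Its gene (ENSMUSG00000005148) lies on chromosome 14, 99298691 to 99315036, plus strand. The libraries read 469, 434, 496 and 425 CPM in WT and 501, 496, 540 and 560 CPM in Rank-knockout, which overlapped only at WT replicate 3 and Rank-knockout replicate 2. With means of 456 ± 32.7 and 524 ± 31.1 CPM (SD, n = 4 each) the log2 fold change was 0.20 (SE 0.13, 95% interval −0.07 to 0.48, edgeR adjusted p = 0.257). Scaled by library totals in place of TMM, Klf5 passed the threshold, with a log2 fold change of 0.40 (edgeR adjusted p = 0.0219). The same scaling moved the median of all tested genes by 0.20.

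The HNF4 pair split. Hnf4g (ENSMUSG00000017688, chromosome 3, 3508030 to 3658052, plus strand) read 120, 143, 121 and 105 CPM in WT against 48.6, 79.2, 67.4 and 82.8 CPM in Rank-knockout. The genotypes did not overlap. The means were 122 ± 15.7 and 69.5 ± 15.4 CPM (SD, n = 4 each) and the log2 fold change −0.82 (SE 0.17, 95% interval −1.19 to −0.46, edgeR adjusted p = 0.00266). Rank-knockout replicate 1 was the lowest library, and without it the fall was −0.68. The Hnf4g gene overlaps 2 small annotated genes on the same strand, Gm37000 and Gm23237, so that reads there could be lost to or shared with them.

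Hnf4a (ENSMUSG00000017950, chromosome 2, 163506808 to 163572910, plus strand) read 152, 92.5, 160 and 124 CPM in WT and 150, 147, 155 and 141 CPM in Rank-knockout. The Rank-knockout libraries lay within the WT range, and the WT spread came largely from the low value of replicate 2. The means were 132 ± 30.8 and 148 ± 5.98 CPM (SD, n = 4 each), with a log2 fold change of 0.17 (SE 0.16, 95% interval −0.17 to 0.52, edgeR adjusted p = 0.446), which was 0.018 without WT replicate 2 and at most 0.27 without any other single library. Hnf4aos, an antisense transcript over Hnf4a that the sense-strand counting separates from it, stood at 8.25 ± 3.02 and 5.24 ± 3.54 CPM (SD, n = 4 each) and did not pass either (log2 fold change −0.81, SE 0.44, edgeR adjusted p = 0.177). An annotated small nuclear RNA, Gm25881, also lies within Hnf4a on its strand.

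Cdx1 was the only one of the 9 that rose. Its gene (ENSMUSG00000024619) lies on chromosome 18, 61018862 to 61036199, minus strand. WT libraries had 60.3, 45.1, 48.5 and 41.9 CPM and Rank-knockout libraries had 89.8, 83.3, 93.5 and 76.4 CPM, with no overlap. The means were 49.0 ± 8.01 and 85.8 ± 7.51 CPM (SD, n = 4 each), a log2 fold change of 0.81 (SE 0.16, 95% interval 0.48 to 1.15, edgeR adjusted p = 0.00153). CDX1 is known from the crypt, where it lies downstream of Wnt signalling, and the cycling markers given above rose in the same libraries.

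Cdx2 (ENSMUSG00000029646, chromosome 5, 147300805 to 147307270, minus strand) read 242, 236, 221 and 208 CPM in WT and 181, 304, 306 and 228 CPM in Rank-knockout. The Rank-knockout libraries fell on both sides of the WT range, 1 below it and 2 above it. The means were 227 ± 15.1 and 254 ± 61.0 CPM (SD, n = 4 each), with a log2 fold change of 0.16 (SE 0.17, 95% interval −0.19 to 0.51, edgeR adjusted p = 0.483). The coefficient of variation was 6.66% in WT and 24.0% in Rank-knockout, where counting error alone accounts for 3.55%. Loss of 1 library did not change the outcome, the log2 fold change running from 0.06 to 0.30.

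Neither GATA factor passed the test. Gata4 (ENSMUSG00000021944, chromosome 14, 63198922 to 63271692, minus strand) read 42.5, 32.2, 34.8 and 32.6 CPM in WT and 21.7, 38.7, 35.1 and 29.8 CPM in Rank-knockout, with overlap. Its log2 fold change was −0.19 (SE 0.20, 95% interval −0.62 to 0.24, edgeR adjusted p = 0.508), and with library totals its sign turned, at 0.0065. Without single libraries it ran from −0.31 to −0.034, the latter without library 1 of the knockouts. Gata6 (ENSMUSG00000005836, chromosome 18, 11052064 to 11085635, plus strand) read 91.1, 61.6, 73.8 and 90.5 CPM in WT and 53.7, 63.8, 62.0 and 75.1 CPM in Rank-knockout. These also overlapped, since WT replicate 2 was lower than 3 of the Rank-knockout libraries. The log2 fold change of Gata6 was −0.30 (SE 0.17, 95% interval −0.66 to 0.05, edgeR adjusted p = 0.182).

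Prdm1 (ENSMUSG00000038151, chromosome 10, 44437177 to 44528501, minus strand) was among the lowest of the 9, with 52 to 83 counts per WT library and 34 to 79 per Rank-knockout library. These were 35.6, 21.0, 56.0 and 39.3 CPM in WT and 16.8, 21.8, 15.3 and 11.6 CPM in Rank-knockout. The genotypes overlapped, because WT replicate 2 lay just under Rank-knockout replicate 2. The means of 38.0 ± 14.4 and 16.4 ± 4.21 CPM (SD, n = 4 each) gave a log2 fold change of −1.18 (SE 0.28, 95% interval −1.77 to −0.60, edgeR adjusted p = 0.00531), the widest interval of the 9. With 1 library left out it ran from −1.43 to −0.95. PRDM1 is also known from plasma cells and T cells. Of the plasma cell markers, Igha, an immunoglobulin heavy chain gene, stood at 86.3, 78.3, 24.6 and 49.3 CPM in WT and 17.2, 37.5, 5.85 and 24.5 CPM in the knockouts, with overlap (log2 fold change −1.49, edgeR adjusted p = 0.0664). Igha passed in limma-voom, with the replicate number as a block, without WT replicate 3 and without library 2 of the knockouts. Jchain, the immunoglobulin joining chain, was too low for the filter at 3.41 to 7.86 CPM in WT and 0.450 to 2.90 CPM in the knockouts, which did not overlap, and was called lower in the edgeR fits with no filter, without WT replicate 3 and without library 3 of the knockouts. Mzb1 averaged 1.99 and 0.836 CPM. The sum of the plasma list overlapped, at 132 to 207 and 134 to 152 CPM, but most of it was Sdc1, which epithelial cells also express (103 and 118 CPM). T cell markers summed to 283 to 417 CPM in WT libraries and 203 to 321 CPM in the others; none of the 7 tested passed in edgeR, DESeq2 or limma-voom with all libraries as deposited, all 7 had a negative log2 fold change, and 1, Gzma, had an unadjusted p under 0.05. Gzma was called lower with thinning and without WT replicate 2, and Cd7 without library 2 of the knockouts. Cd3g, too low to test, averaged 3.89 and 1.73 CPM. The other plasma cell markers, Derl3 and Tnfrsf17, had 0 to 4 counts per library. The part of these cells in the Prdm1 result was not tested.

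**Figure D2:**
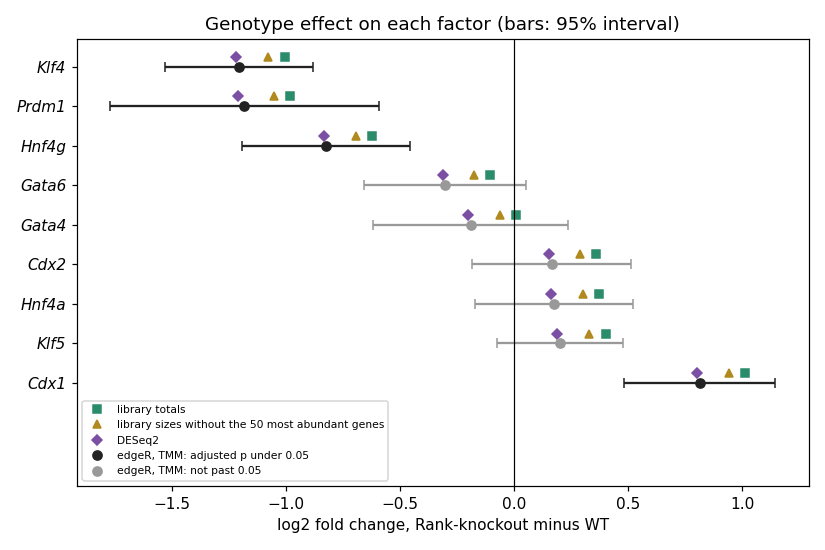
Log2 fold change, Rank-knockout minus WT, of each factor with its 95% interval from edgeR (circles; black where the adjusted p was under 0.05, grey otherwise), beside the values with DESeq2 (diamonds), with library totals (squares) and with library sizes that leave out the 50 most abundant genes (triangles). The order runs from Klf4 at −1.21 to Cdx1 at 0.81; both alternative scalings move all 9 to the right, and library totals take Gata4 to 0.0065.

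The order of levels changed in the middle and at the bottom. In WT it ran Klf4, Klf5, Cdx2, Hnf4a, Hnf4g, Gata6, Cdx1, Prdm1, Gata4, and the neighbours whose library ranges overlapped were Hnf4a with Hnf4g, Cdx1 with Prdm1, and Prdm1 with Gata4. In Rank-knockout it ran Klf4, Klf5, Cdx2, Hnf4a, Cdx1, Hnf4g, Gata6, Gata4, Prdm1, with overlap between Cdx1 and Hnf4g, Hnf4g and Gata6, and Gata4 and Prdm1. Cdx1 thus stood below Hnf4g in WT by more than the spread of the libraries, and in Rank-knockout the pair could not be ordered.

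A ratio of 2 genes within a library does not depend on how the library is scaled. For the 4 pairs with related roles it was compared by an exact two-sided permutation test over the 70 ways to divide the 8 libraries, whose smallest possible p is 0.0286, with adjustment over the 4 pairs. Since Klf4, Hnf4g and Cdx1 had each moved and their partners had not passed, these ratios restate the gene results without the scaling and are not separate evidence. When any WT library or Rank-knockout replicate 1 was left out, the 3 ratios that differed had adjusted p values of 0.0571 to 0.0762.

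Klf4 over Klf5 narrowed most. In WT the libraries held 3.20, 4.41, 2.90 and 3.48 Klf4 counts per Klf5 count and in Rank-knockout 1.44, 1.59, 1.19 and 1.06, without overlap. The mean log2 ratio went from 1.79 ± 0.26 to 0.38 ± 0.26 (SD, n = 4 each), a difference of −1.41 (exact permutation p = 0.0286, adjusted p = 0.0381). Klf4 made up 77.4% of the summed pair in WT and 56.5% in Rank-knockout.

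Hnf4g over Hnf4a was 0.789, 1.55, 0.754 and 0.850 in WT and 0.325, 0.539, 0.436 and 0.588 in Rank-knockout. Hnf4g transcripts outnumbered those of Hnf4a in 1 library, WT replicate 2. The log2 ratio fell from −0.09 ± 0.48 to −1.12 ± 0.38 (SD, n = 4 each), a difference of −1.03 (exact permutation p = 0.0286, adjusted p = 0.0381), and was −0.79 without WT replicate 2. The summed level of both HNF4 genes was 254 ± 26.0 CPM in WT against 218 ± 12.9 CPM (SD, n = 4 each), and Hnf4g took 48.4% of it in WT but 31.7% in Rank-knockout.

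Cdx1 over Cdx2 was 0.250, 0.192, 0.221 and 0.203 in WT and 0.497, 0.275, 0.306 and 0.336 in Rank-knockout, with no overlap and the highest value in Rank-knockout replicate 1. The difference of the mean log2 ratios was 0.68 (exact permutation p = 0.0286, adjusted p = 0.0381), and 0.50 without that library. Gata6 over Gata4 was alike in range, with WT log2 ratios of 1.14 ± 0.23 beside 1.04 ± 0.32 in the knockouts (SD, n = 4 each) and a difference of −0.10 (exact permutation p = 0.629, adjusted p = 0.629). Leaving out WT replicate 4 or Rank-knockout replicate 2 turned the sign of that small difference.

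**Figure D3:**
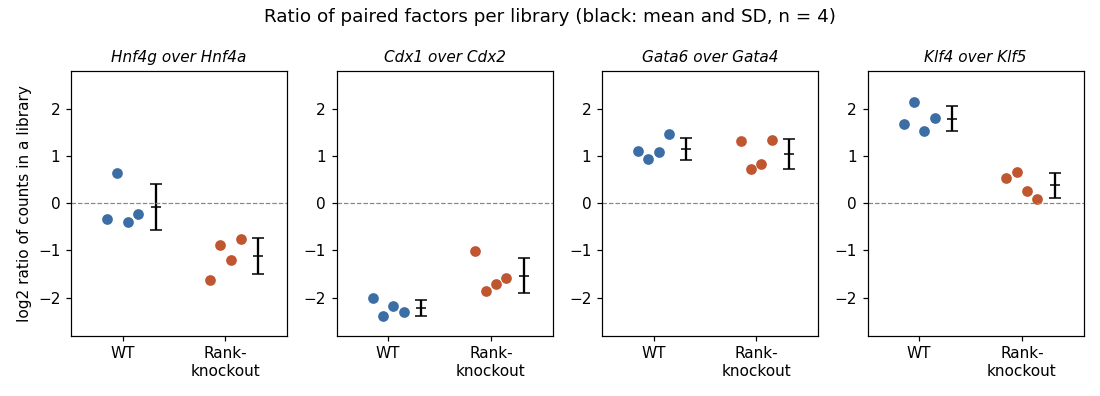
Log2 ratio of the counts of the paired factors in each library (vertical axis; 0, dashed, means equal counts), for WT (blue) and Rank-knockout (orange), with mean and SD in black. The genotypes separate for Hnf4g over Hnf4a, Cdx1 over Cdx2 and Klf4 over Klf5 and overlap for Gata6 over Gata4; WT replicate 2 stands apart at 0.63 in the first panel.

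Promoters from the RefSeq table, on GRCm38.p6, were read for 4 of the 9 factors: Hnf4a, Cdx2, Klf4 and Prdm1. Cdx1, the only factor that rose, and Gata6 were left out of this reading, so their promoters are not described. Among the factors that fell, the reading covered Klf4 and Prdm1. The 250 bases before the RefSeq start site of these genes are shown because both fell while their base composition differs. For Prdm1 this start lies inside the gene as given above, whose far end is set by a transcript that begins further upstream. Capitals mark the matches, on either strand, to any of 6 short motifs: CAAAGTCCA for HNF4, TTTATT for CDX, AGATAA for GATA, CACCC and GGGCGG for Krüppel-like and SP factors, and the κB consensus for NF-κB.
Klf4, chr4:55532476-55532725, minus strand: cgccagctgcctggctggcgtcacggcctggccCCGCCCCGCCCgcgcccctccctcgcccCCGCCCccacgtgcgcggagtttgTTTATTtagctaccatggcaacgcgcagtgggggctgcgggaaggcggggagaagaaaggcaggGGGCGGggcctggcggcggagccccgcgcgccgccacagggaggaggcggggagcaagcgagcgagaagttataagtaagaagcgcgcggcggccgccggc
Prdm1, chr10:44458749-44458998, minus strand: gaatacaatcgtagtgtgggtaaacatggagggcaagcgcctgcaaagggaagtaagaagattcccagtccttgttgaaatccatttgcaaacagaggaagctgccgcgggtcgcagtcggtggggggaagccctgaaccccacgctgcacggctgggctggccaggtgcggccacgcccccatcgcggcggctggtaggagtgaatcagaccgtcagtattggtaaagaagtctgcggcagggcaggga

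The Klf4 window held 32 CpG dinucleotides, at the 96.0th percentile of the promoters read, against a median of 6, and its GC content was 74%. It matched GGGCGG 4 times, with 2 of these matches overlapping, and TTTATT once; 32.7% and 18.1% of the 32851 promoters hold these motifs at least once. The Prdm1 window, 15 CpG dinucleotides, held none of the 6. For the factors that did not pass the test, the Cdx2 window held 1 CACCC, a motif found in 52.0% of promoters, and the Hnf4a windows held 3 and 5 of them. The first of these Hnf4a windows also held 1 AGATAA, found in 9.99% of promoters, and 1 GGGCGG that overlaps a CACCC match. None of these windows held CAAAGTCCA or the κB consensus, which only 0.384% and 0.356% of promoters hold. Such matches describe the letters of the window and not binding.

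Genes whose levels followed each moved factor most closely were found by the root mean square difference of mean-centred log2 CPM over the 8 libraries, among 7864 genes. The 2 closest to Klf4 were Slc41a2 (0.0996) and Ggt1 (0.105), a gamma-glutamyltransferase. For Hnf4g they were Tm6sf2 (0.0826), known from hepatic and intestinal lipid secretion, and Sar1b (0.103), the GTPase of the COPII coat needed for chylomicron export. For Cdx1 they were Polr1d (0.0749), a subunit of RNA polymerases I and III, and Srsf7 (0.0945), a splicing factor. Prdm1 had no neighbour as close, with Fam118a (0.226) and Cidec (0.250) leading. Since 30.4% of tested genes differed by genotype, closeness over 8 libraries is a description.

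The relatives of the 9 factors were read in the same fit. Of the 15 other Krüppel-like genes, 7 could be tested and 2 fell. Klf6 went from 500 ± 95.6 to 260 ± 29.7 CPM (SD, n = 4 each; log2 fold change −0.94, SE 0.16, edgeR adjusted p = 0.000704) and Klf3, known as a repressor, from 166 ± 16.6 to 108 ± 8.43 CPM (log2 fold change −0.63, SE 0.14, edgeR adjusted p = 0.00293). Klf7, Klf9, Klf10, Klf13 and Klf16 did not pass, with log2 fold changes from −0.22 to 0.36; Klf9 and Klf13 changed sign with library totals, and Klf10 when thinned or without single WT libraries. Gata5, the third GATA gene of the gut, fell from 50.3 ± 9.75 to 30.1 ± 6.35 CPM (SD, n = 4 each; log2 fold change −0.76, SE 0.20, edgeR adjusted p = 0.00849), with overlapping libraries. Zfpm1, which encodes the GATA cofactor FOG1, stood at a log2 fold change of 0.09 (edgeR adjusted p = 0.731). Gata1 and Zfpm2 had 0 counts in all libraries, and Gata2 and Gata3 were too low to test.

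Of 18 other enterocyte factors and nuclear receptors, 7 fell, 2 rose and 9 did not pass, with a median log2 fold change of −0.41 beside 0.02 over all tested genes. Creb3l3, a membrane-bound regulator of lipid genes, went from 562.5 ± 54.8 to 271 ± 47.4 CPM (log2 fold change −1.06, edgeR adjusted p = 0.000311). Maf, known from enterocyte maturation, went from 1046 ± 267 to 495 ± 152 CPM (log2 fold change −1.08, edgeR adjusted p = 0.00279). Vdr, the vitamin D receptor, went from 495 ± 59.7 to 330 ± 36.2 CPM (log2 fold change −0.59, edgeR adjusted p = 0.00610). The 2 that rose were Ehf, an epithelial ETS factor (log2 fold change 0.96, edgeR adjusted p = 0.00455), and Nr5a2, also called LRH-1, which is known from crypt cells (log2 fold change 0.57, edgeR adjusted p = 0.0203). Nr5a2 did not pass with thinning (edgeR adjusted p = 0.111) or without WT replicate 1, 3 or 4 (edgeR adjusted p = 0.0649 to 0.0941), and the falls of this group were 3 with library totals, 4 with no filter on low counts, 3 with library sizes that leave out the 50 most abundant genes, and 3 to 4 when replicate 1, 2 or 3 of the Rank-knockout group was left out.

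Factors of crypt stem and cycling cells went mostly the other way: of 11, 8 could be tested, 6 rose and 1 fell, with a median log2 fold change of 1.03. Hes1, the Notch effector that keeps progenitors absorptive, rose from 33.6 ± 11.2 to 79.2 ± 5.72 CPM (SD, n = 4 each; log2 fold change 1.29, edgeR adjusted p = 0.000899). Foxm1, a driver of mitotic genes, rose from 9.34 ± 1.85 to 22.8 ± 3.85 CPM (log2 fold change 1.26, edgeR adjusted p = 0.00110), and Myb rose with a log2 fold change of 1.18 (edgeR adjusted p = 0.00113). Tcf7l2, the Wnt effector TCF4, was the 1 that fell (log2 fold change −0.43, edgeR adjusted p = 0.0331); it did not pass with library totals (0.225), with library sizes that leave out the 50 most abundant genes (0.116), with no filter (0.0863) or when WT library 3 or 4, or library 2 or 3 of the knockouts, was left out (0.0653 to 0.114). The rises of this group were 4 when library 1 or 4 of WT, or library 1 or 3 of the knockouts, was left out. Paneth cell markers stood higher beside them, with all 7 log2 fold changes positive, 3 of 7 called in edgeR (Ang4, Itln1, Mmp7), 5 in DESeq2, 7 in limma-voom and 1 without WT replicate 1, 3 or 4 or without library 3 of the knockouts. Their sum was 2302 to 5047 CPM in WT libraries and 3225 to 10397 CPM in the others, with overlap, and their part in the result was not tested. Of 10 patterning factors 4 could be tested, and Foxa3 rose (log2 fold change 0.71, edgeR adjusted p = 0.0180), though not when WT library 1, 3 or 4, or library 1 or 3 of the knockouts, was left out (0.0571 to 0.0708). The stomach factor Sox2 and the caudal relative Cdx4 had 0 counts in all 8 libraries.

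Over these 60 other transcription factors, of which 39 could be tested, 9 rose and 11 fell, where 15.8% and 14.6% of all tested genes did. The count of falls was 6 with library totals, under which those of all tested genes went from 1438 to 857, and 6 with library sizes that leave out the 50 most abundant genes. It was 7 when replicate 1, 2 or 3 of the Rank-knockout group was left out. The count of rises was 5 without WT replicate 1 or 4.

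**Figure D4:**
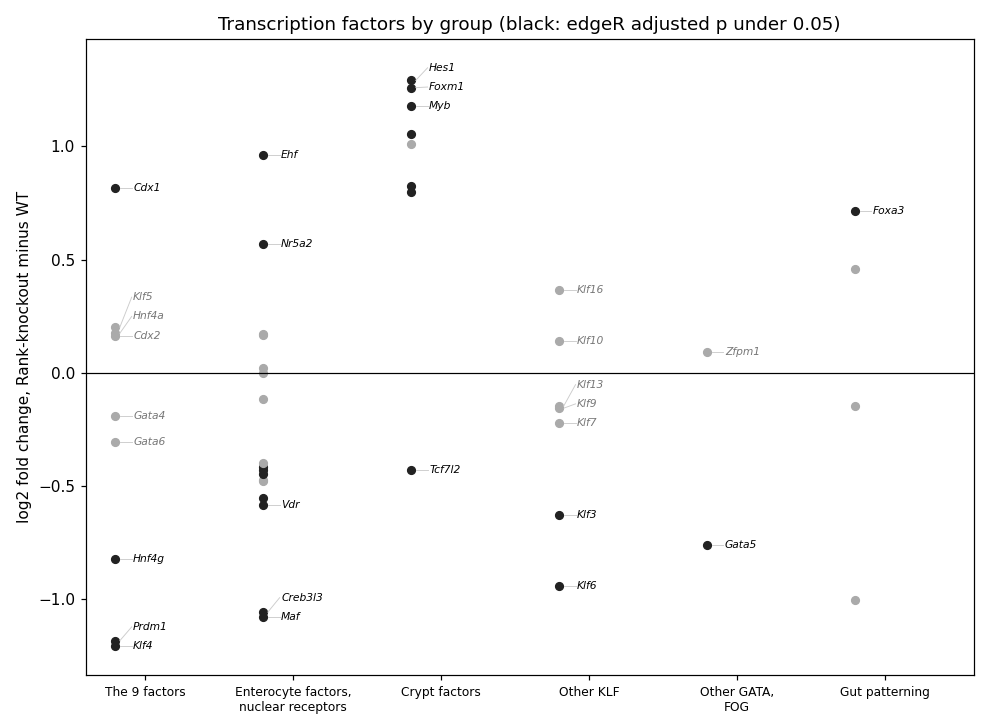
Log2 fold change, Rank-knockout minus WT, of tested transcription factors by group (columns; 1 enterocyte factor is not drawn, and names are given for the 9 factors and those selected for naming), with black points past an edgeR adjusted p of 0.05 and grey points not. Most crypt factors lie between 0.80 and 1.29, the enterocyte factors that fell reach −1.08, and the 9 factors spread from −1.21 to 0.81.

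Genes known as targets of each factor were counted in the same way. Many of them are enterocyte or cell cycle genes, several stand in more than 1 list or among the markers above, and no list tests the activity of its factor. Of 10 genes known to be driven by HNF4, 8 fell, with a median log2 fold change of −1.13; Apoc3 fell from 1262 ± 154 to 464 ± 79.2 CPM and Apob from 941 ± 125 to 372 ± 39.9 CPM (SD, n = 4 each; log2 fold changes −1.44 and −1.34, edgeR adjusted p = 9.88e-05 for both). Apoc3 and Apob encode lipoprotein components of chylomicrons. Fabp1, a fatty acid binding protein, did not pass (log2 fold change −0.64, edgeR adjusted p = 0.0737), but it passed in DESeq2 (0.0414), with the replicate number as a block, with no filter, and without WT replicate 2 or library 4 of the knockouts (−0.82 and −0.80). Of 8 CDX targets 7 fell, with a median of −0.78, and 4 with library totals; Cdx2 had not passed and Cdx1 had risen. Slc15a1, the peptide transporter, fell with a log2 fold change of −1.31 (edgeR adjusted p = 0.000430) and Krt20, a keratin of mature enterocytes, with −0.96 (edgeR adjusted p = 0.000362), while Isx stood at 0.17 (edgeR adjusted p = 0.526).

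For GATA4 the jejunal genes that it maintains and the ileal genes that it holds back were counted apart. Of 5 jejunal genes 4 fell, among them Lct, the lactase gene, with a log2 fold change of −1.35 (edgeR adjusted p = 0.000574). Of 5 ileal genes 2 could be tested and 1 fell, the bile acid transporter subunit Slc51b, with a log2 fold change of −0.74 (edgeR adjusted p = 0.00793). Its partner subunit Slc51a stood at −0.49 (edgeR adjusted p = 0.0738), with no overlap between the libraries. The number of ileal genes called lower was 2 with no filter on low counts, with the replicate number as a block and without library 2 or 4 of the knockouts. Fabp6, an ileal bile acid binding protein, had 1, 9, 2 and 1 counts in WT and 46, 9, 9 and 21 in Rank-knockout, too few for the filter in the full set; it was called higher where it passed, without a filter and without WT replicate 1, 3 or 4. Fgf15 had 0 in all 8 libraries.

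Of 3 KLF4 targets, Alpi, the alkaline phosphatase of the brush border, fell with a log2 fold change of −1.17 (edgeR adjusted p = 0.00157) and Cdkn1a, the cell cycle inhibitor p21, with −0.84 (edgeR adjusted p = 0.000725). Cdkn1b, the inhibitor p27, stood at 0.22 (edgeR adjusted p = 0.392). All 4 testable KLF5 targets rose, led by Birc5, Ccnd1 and Cdk1 with log2 fold changes of 1.29, 1.44 and 1.27; 3 of these 4 are also among the 11 cycling markers, and Klf5 itself had not passed under TMM scaling. Ccnd1 encodes cyclin D1, and it rose from 139 ± 40.0 to 378 ± 76.0 CPM (SD, n = 4 each; edgeR adjusted p = 0.000274).

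PRDM1 is known to hold back adult enterocyte genes in the suckling gut. In these adult mice, Prdm1 fell and so did all 3 adult genes counted. Among them were Treh, the trehalase (log2 fold change −1.39, edgeR adjusted p = 9.88e-05), and Sis, sucrase-isomaltase (−0.76, edgeR adjusted p = 0.0295). With library totals, or with library sizes that leave out the 50 most abundant genes, 1 of the 3 was called. The count was also 1 when WT library 3 or 4, or library 2 or 3 of the knockouts, was left out. It was 2 without library 1 of either genotype. Sis did not pass with library totals, with library sizes that leave out the 50 most abundant genes, or when WT library 3 or 4, or library 2 or 3 of the knockouts, was left out (edgeR adjusted p = 0.0589 to 0.0865); nor did it pass without library 1 of the knockouts (0.0621). Of 4 suckling genes 2 could be tested, and neither the neonatal Fc receptor Fcgrt (log2 fold change −0.44, edgeR adjusted p = 0.0766) nor Glb1 (0.20, edgeR adjusted p = 0.458) passed in edgeR, DESeq2 or limma-voom; Fcgrt had an unadjusted p under 0.05 and was called lower without library 4 of the knockouts (log2 fold change −0.53, edgeR adjusted p = 0.0490).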

How the data were processed

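RNA of intestinal epithelial cells from 4 WT and 4 Rank-knockout mice at lactation day 5 was made into 3′ end libraries and read from 1 end. The methods of the study state that the authors used BBDuk for trimming, bowtie2 to discard ribosomal, mitochondrial, phiX and adapter reads, STAR with the Ensembl annotation of GRCm38 for alignment, and featureCounts in its sense-strand mode. The deposited values are raw counts per gene; the authors tested them with DESeq2. No molecular identifiers are mentioned, so PCR copies count as reads. The 95% intervals rest on the spread between libraries. Symbols and positions came from GENCODE M21 on the same build, and 123 identifiers had no symbol there. Samples were grouped by their titles, which number the mice; no source used here says how littermates were spread over the libraries.

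The test on these counts was that of edgeR 4.0.16 under R 4.3.3 (filterByExpr, TMM, robust quasi-likelihood F-test with genotype as the only term) and adjusted by Benjamini-Hochberg over 9855 genes, at a threshold of 0.05; fold changes are Rank-knockout minus WT. SE came from the F statistic. Ratios used counts with 0.5 added. The members and all lists were chosen with earlier results of these data known. The text names the 9 factors, Tnfrsf11a, up to 3 genes past the threshold in each direction per list, tested relatives of the factors, the 2 genes nearest in profile to each factor that passed, and markers that moved; genes that did not pass in the target lists, and genes at 0 or too low to test, were named after their values were seen. Like profiles were sought among genes of at least 10 mean CPM outside the lists. Alternatives were library totals, RLE factors, library sizes that leave out the 50 most abundant genes, no filter, a mean CPM of 5, DESeq2 1.42.0, limma-voom (limma 3.58.1), the replicate number as a block, thinning to the shallowest library, and each library left out; for ratios, 0.1 or 2 added to counts, summed counts, and a sign-flip test. The test was tried on simulated counts. Libraries of a genotype differed by more than sampling noise, the lowest chi-square per degree of freedom being 3.97. Some listed genes are counted but not reported here by name.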

Additional observations from a re-analysis of the deposited data

Results flagged for a closer look

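Values of a library were compared with those of the other 3 of its genotype for the 9 factors and the 4 ratios, 26 sets in all, of which chance would flag about 1.3. Both that were flagged belong to WT replicate 2, the deepest WT library. It had 1915 CPM of Klf4, where the other WT libraries had 1440 to 1502 CPM. Its log2 ratio of Hnf4g over Hnf4a was 0.63, where theirs were −0.41 to −0.23. The same library was the lowest of the WT libraries for Hnf4a, Gata4, Gata6 and Prdm1 and the highest for Hnf4g. Without it the log2 fold change of Klf4 was −1.11 and the difference of the Hnf4g over Hnf4a ratio −0.79, in the same direction as with it.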

How the results depend on the processing

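The number of the 9 factors called lower was 3 in every alternative, and the number called higher was 1 except with library totals, where Klf5 made it 2. Of 153 values of the 9 factors under alternatives, 151 kept their direction and side of the threshold, 1 passed (Klf5) and 1 turned sign (Gata4, 0.0065, library totals). Without single libraries the counts stayed at 1 and 3. Among the other transcription factors, 11 falls became 6 with library totals and 6 without the 50 most abundant genes; without single libraries the rises ran from 5 to 10 and the falls from 7 to 12. Scaling matters because library totals move the median of all tested genes by 0.20 and the calls from 1555 higher and 1438 lower to 2575 and 857; without the 50 most abundant genes they were 2164 and 1016. Klf9 (0.043) and Klf13 (0.055) turned sign with library totals. Klf10 turned with thinning (−0.0070) and without WT replicates 1 (−0.058), 2 (−0.077) and 3 (−0.015), its range without single libraries ending at 0.74.

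Without single libraries the ratio differences ran from −1.15 to −0.79 (Hnf4g over Hnf4a), 0.50 to 0.79 (Cdx1 over Cdx2), −1.50 to −1.29 (Klf4 over Klf5) and −0.19 to 0.01 (Gata6 over Gata4, 0.0096 without WT replicate 4 and 0.0104 without Rank-knockout replicate 2); with 7 libraries only 35 assignments remain, and the adjusted permutation p values of the first 3 pairs passed the threshold in only some of these. Whether the replicate numbers pair the mice could not be decided from so few libraries. Correlations of same-numbered deviations were 0.051, 0.151, −0.136 and 0.318, and 4 of 8 libraries correlated best with their own number. With the replicate number as a block the calls of the 9 factors were as before, and all genes gave 1708 higher and 1602 lower. For the ratios the paired sign-flip test kept −1.03, 0.68 and −1.41 but its smallest p is 0.125, so none could pass (adjusted p = 0.167). Depth limits the low factors most: counting error alone was 12.3% of the level of Prdm1 in WT and 14.3% in Rank-knockout. For Gata4 it was 12.7% and 10.1%. The coefficient of variation of Prdm1 between libraries was larger, at 37.8% in WT and 25.7% in Rank-knockout.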
